A study of Saccharomyces cerevisiae with 35 samples.

Results

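The unstressed transcriptomes of 2 wild Saccharomyces cerevisiae strains were compared, BC187 of the Wine/European lineage and NCYC3290 of the West African lineage. The comparison takes the 3 libraries of each strain that were collected before any salt was added, 6 of the 35 libraries in the series. The sample labels give 0.7 M NaCl for these libraries too, with a time of 0 h. That they were taken before salt rests on the Methods. BC187 replicates 1, 2 and 3 were set against NCYC3290 replicates 1, 2 and 3, which were grown in parallel. All cells were diploid and grew in rich YPD medium into early log phase. The other 29 libraries hold the same strains after 30 min and 3 h in 0.7 M NaCl, the laboratory strain BY4743 and the North American strain YPS128. Each lineage is 1 strain here, so strain and lineage cannot be told apart. The question was how far expression differs between the strains before salt, and which differences are still measured under salt.

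As background, budding yeast in rich glucose medium makes most of its energy by fermentation and keeps respiration, alternative carbon and nitrogen use and stress defence at low levels. The ends of its chromosomes carry families of transporters, adhesins and sugar-use genes that differ in content between strains. The mitochondrial genome of yeast carries mobile introns whose presence varies from strain to strain. Reads of both strains were mapped to the genome of the reference strain S288c, so a gene with 0 counts may be missing, diverged or silent, and these cannot be told apart.

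Library totals were 4419322 to 5253590 counts in BC187 and 4529616 to 5036681 in NCYC3290, and levels are given as CPM, counts scaled by TMM library sizes. A count of 3 corresponds to 0.552 to 0.716 CPM in BC187 and to 0.526 to 0.709 CPM in NCYC3290. The 2 strains lay apart on the first principal component of the 6 libraries, which held 67.9% of the variance. The second component held 19.1% and set the replicate 2 library of each strain apart from replicates 1 and 3. Markers of haploid cells were summed to look at the diploid label. There was no haploid library to compare with, so these sums cannot decide it. The 22 genes of that list summed to 175 to 215 CPM in BC187 and to 137 to 166 CPM in NCYC3290. Without FAR1, a cell cycle inhibitor of the mating response, they summed to 96.7 to 116.5 CPM in BC187 and to 126.5 to 147 CPM in NCYC3290. FAR1 alone was higher in BC187, with 71.2, 98.1 and 82.1 CPM, against 10.4, 18.9 and 12.8 CPM in NCYC3290 (log2 fold change 2.60 ± 0.13, SE), and STE2, AXL1 and STE4 were lower. The 8 members too low to test, STE3, MFA1, MFA2, MF(ALPHA)1, FUS3, AGA2, HO and FUS1, summed to under 5 CPM in each of the 6 libraries. These 8 were set apart by the low-count filter, so their low sum follows from the filter and does not check the label.

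Of 5644 genes tested, 1652 differed between BC187 and NCYC3290 at an adjusted p below 0.05, which is 29.3% of the genes. In BC187, 761 genes were higher (13.5%) and 891 were lower (15.8%). At least a 2-fold difference was reached by 336 of them (5.95%), 157 higher in BC187 (2.78%) and 179 lower (3.17%). The median log2 fold change, BC187 minus NCYC3290, was -0.02, and the median size of the change was 0.22. Leaving out replicate 1 of both strains lowered the count of called genes to 1008, and scaling by library totals gave 603 higher and 1074 lower genes in place of 761 and 891. Without the replicate term that pairs the libraries, 549 genes were called.

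**Figure D1:**
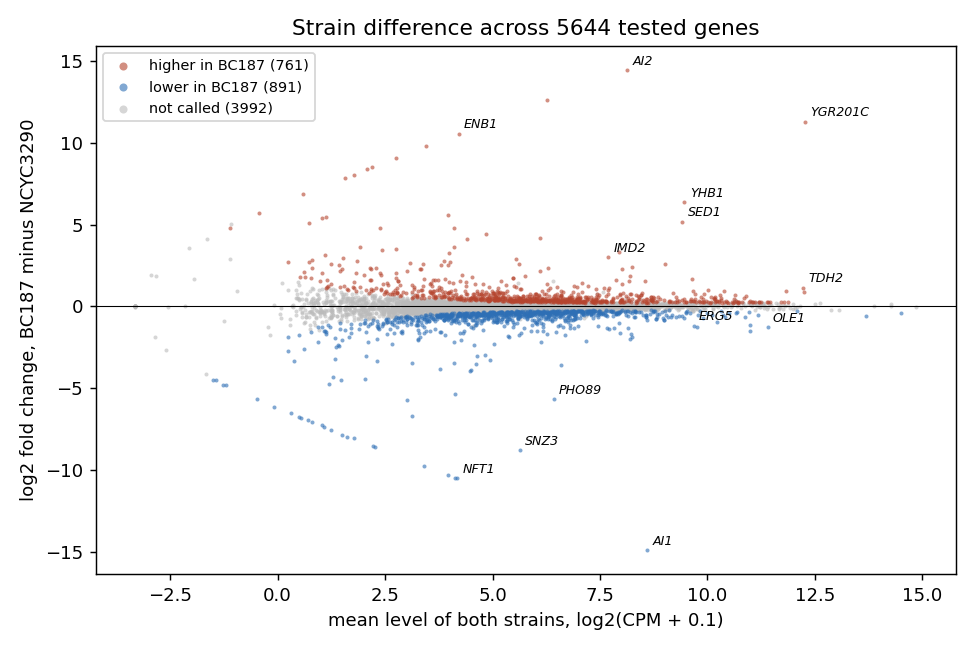
Mean level of the 2 strains as log2(CPM + 0.1) on the horizontal axis against the log2 fold change, BC187 minus NCYC3290, on the vertical axis, with 1 point for each of 5644 tested genes. Red points were higher in BC187 (761), blue points lower (891) and grey points were not called. YGR201C lies at the upper right, and TDH2 lies at the right, a little above the line of no difference (log2 fold change 1.14). The diagonal arms are genes with 0 counts in 1 strain.

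The gene with the largest difference among those counted in both strains was YGR201C, an uncharacterized gene on chromosome VII (positions 902520 to 903197). Its level was 9752, 9936 and 9817 CPM in BC187, against 4.83, 3.54 and 3.33 CPM in NCYC3290. The log2 fold change was 11.29 ± 0.15 (SE, n = 3 each, adjusted p = 1.4e-30). The other strains were like NCYC3290, with means of 8.13 CPM in BY4743 and 6.71 CPM in YPS128. The promoter window of YGR201C runs from 250 bases before to 50 bases after its start codon. It is shown because this was the largest difference among genes counted in both strains. It is the RefSeq S288c sequence of the R64 assembly (chrVII:903148-903447, minus strand), not the sequence of BC187 or NCYC3290.
YGR201C: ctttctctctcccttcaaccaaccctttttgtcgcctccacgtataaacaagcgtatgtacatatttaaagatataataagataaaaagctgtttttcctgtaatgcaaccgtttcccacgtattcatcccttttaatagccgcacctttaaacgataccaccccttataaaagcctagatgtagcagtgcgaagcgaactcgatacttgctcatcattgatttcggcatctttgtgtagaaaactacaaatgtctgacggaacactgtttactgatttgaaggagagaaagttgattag

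YHB1, the nitric oxide oxidoreductase flavohemoglobin, measured 1298, 1548 and 1334 CPM in BC187, against 19.9, 12.1 and 17.9 CPM in NCYC3290. The log2 fold change was 6.36 ± 0.15 (SE, adjusted p = 1.2e-20). BY4743 stood near BC187 at 905 CPM, and YPS128 had 1.79 CPM, below NCYC3290.

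The genes SED1, CWP1, TIP1 and PRM5 of the cell wall and surface were among the 15 named for the largest higher values in BC187. SED1, a glycosylphosphatidylinositol-anchored wall mannoprotein, had 1089, 1643 and 1233 CPM in BC187, against 23.6, 47.0 and 39.8 CPM in NCYC3290 (log2 fold change 5.18 ± 0.16, SE, adjusted p = 1.4e-13). NCYC3290 was the low strain of the 4 for SED1, since BY4743 had 1550 CPM and YPS128 had 1255 CPM. CWP1, another wall mannoprotein, had 388, 517 and 439 CPM in BC187, against 26.1, 74.2 and 40.3 CPM in NCYC3290 (3.34 ± 0.31, SE, adjusted p = 0.00023). TIP1, a wall mannoprotein induced by cold, had 48.0, 67.3 and 48.0 CPM in BC187, against 2.90, 2.84 and 1.75 CPM in NCYC3290. PRM5, a target of the cell wall integrity pathway, had 28.3, 47.5 and 23.2 CPM in BC187, against 0.77, 1.18 and 1.403 CPM in NCYC3290. These 4 genes were named for their large differences in the same libraries, so the lack of overlap between the strains follows from that choice. In the list of cell wall integrity genes, 11 of 31 tested members were higher in BC187 and 1 was lower. Over all genes tested 13.5% were higher and 15.8% lower. The median log2 fold change of the list was 0.16, against -0.02 over all genes tested. Without the replicate term 1 of the 31 was higher, and leaving out single libraries or replicate numbers gave 5 (without replicate 1 or BC187 replicate 1) to 11.

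**Figure D2:**
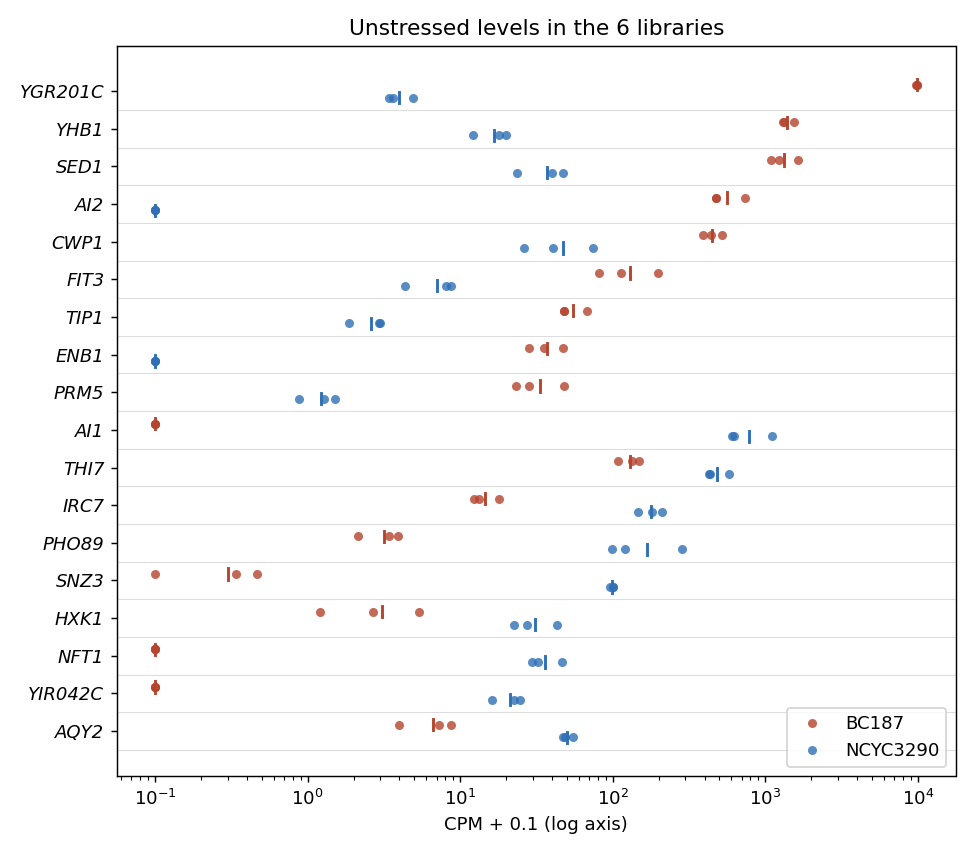
Level of 18 genes in each unstressed library, as CPM + 0.1 on a log axis, with the 3 BC187 libraries (red) above the 3 NCYC3290 libraries (blue) of each gene and a tick at the mean. YGR201C lies between 9752 and 9936 CPM in BC187 and below 5 CPM in NCYC3290, and points at 0.1 are libraries with 0 counts.

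In the list of flocculation and adhesion genes, 6 of 19 tested members were higher in BC187 and 5 lower. The shares over all genes were 13.5% and 15.8%. The higher members include SED1, CWP1 and TIP1, which were named above for their large differences. Among adhesins of the FLO family, FLO9 was lower in BC187, with 2.72 ± 1.37 CPM, against 41.6 ± 7.2 CPM in NCYC3290 (SD, n = 3 each, log2 fold change -3.97). FLO9 shares sequence with FLO1 and FLO5, and 53.8% of its 100-base windows occur once in the reference. With FLO1, FLO5 and FLO9 taken as 1 gene, a sum chosen with the data in view, BC187 was lower by -0.74 on the log2 scale (adjusted p = 3.7e-05).

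Genes for iron handling differed in both directions. FIT3, a wall mannoprotein that holds iron siderophores, had 197, 80.9 and 113 CPM in BC187, against 4.25, 8.03 and 8.59 CPM in NCYC3290 (log2 fold change 4.21 ± 0.55, SE, adjusted p = 0.0017). FIT2, its neighbour with the same function, had 56.5, 14.6 and 20.5 CPM in BC187, against 0.19, 1.18 and 0.53 CPM in NCYC3290 (5.58 ± 0.96, SE, adjusted p = 0.0059). The BC187 libraries varied widely, with replicate 1 the highest for both genes. ENB1, the enterobactin transporter, had 47.3, 35.1 and 28.2 CPM in BC187, against 0 counts in the 3 NCYC3290 libraries. It was at least 61.0-fold higher in BC187, taking the mean level of 3 counts per library in NCYC3290 as the floor. Other bounds of this kind use the same floor in the strain at 0. HMX1, the heme oxygenase, was lower in BC187, with 13.1, 6.44 and 12.5 CPM, against 50.6, 36.6 and 75.8 CPM in NCYC3290 (log2 fold change -2.32 ± 0.17, SE, adjusted p = 6.5e-12). Over the iron uptake list, 6 of 26 tested members were higher in BC187 and 7 lower, beside 13.5% higher and 15.8% lower over all genes. Without replicate 3 the counts were 3 higher and 5 lower, and with no replicate term 4 and 3. FET3 and FTR1, the high-affinity uptake complex, had log2 fold changes of -0.12 and -0.17 and were not called.

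A group of genes had 0 counts in all libraries of 1 strain and at least 10 counts in every library of the other. In BC187 there were 17 such genes, and in NCYC3290 there were 10. Of the 22 of these 27 genes that have a place on the nuclear chromosomes of the reference, 17 (77.3%) lie within 30 kb of a chromosome end, against 273 of 5506 tested genes (4.96%). Among genes at least 2-fold apart, 47 of 145 placed genes higher in BC187 (32.4%) and 49 of 173 lower (28.3%) lie that close to an end. NFT1, a putative multidrug transporter, YKR104W and VBA5, all at 0 in BC187, are neighbours at 1 end of chromosome XI. NFT1 had 0, 0 and 0 counts in BC187, against 167, 195 and 168 in NCYC3290, and was at least 59.2-fold lower in BC187. SEO1, a putative permease, had 0 counts in the 3 BC187 libraries, against 36, 31 and 32 in NCYC3290. ENB1 and its neighbour CSS3 at an end of chromosome XV had counts in BC187 and 0 counts in NCYC3290. Not all of these genes are alone in the genome. The Ty element genes YJR027W and YDR210C-D had 0 counts in BC187, but 4.53% and 8.76% of their 100-base windows occur once.

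The mitochondrial genome gave the 2 largest fitted values. AI2, the reverse transcriptase encoded in an intron of COX1, had 2577, 3082 and 2588 counts in BC187, against 0, 0 and 0 in NCYC3290, and was at least 930.02-fold higher in BC187. AI1, the reverse transcriptase of the neighbouring intron, had 0 counts in BC187, against 3143, 4678 and 3531 in NCYC3290, and was at least 1279.95-fold lower in BC187. The introns are annotated over the same COX1 region, and counting may share reads among AI1, AI2 and COX1. SCEI, the homing endonuclease of the omega intron, had 821, 728 and 735 counts in BC187, against 0 in NCYC3290. COX1 itself was lower in BC187, with 394, 394 and 361 CPM, against 577, 796 and 491 CPM in NCYC3290 (log2 fold change -0.68 ± 0.10, SE, adjusted p = 2.6e-06). COB and COX3 were also lower in BC187, with log2 fold changes of -0.33 and -0.42. COX2 had a log2 fold change of 0.01 and was not called. Of 16 tested mitochondrial genes, 6 were higher in BC187 and 4 lower, and with no replicate term 5 and 2, where 13.5% and 15.8% of all genes were.

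Genes for lysine synthesis were higher in BC187, with 8 of 10 tested members called, against 13.5% of all genes. Their median log2 fold change was 0.80. The 2 that were not called, LYS14 and LYS5, had values of 0.11 and 0.22. LYS12, homoisocitrate dehydrogenase, had 427, 357 and 332 CPM in BC187, against 165, 131 and 132 CPM in NCYC3290 (log2 fold change 1.38 ± 0.09, SE, adjusted p = 4.1e-13). LYS20, homocitrate synthase, had 289, 281 and 275 CPM in BC187, against 124, 172 and 108 CPM in NCYC3290. The sum of LYS20 and its near copy LYS21 was 511 ± 22 CPM in BC187, against 245 ± 41 CPM in NCYC3290 (SD, n = 3 each, log2 fold change 1.07). A fit with no replicate term called 7 of the 10.

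Purine synthesis genes were higher in BC187 in 15 of 19 tested cases and lower in none, against 13.5% and 15.8% of all genes. Their median was 0.40. IMD2, an IMP dehydrogenase of guanine nucleotide synthesis, differed most, with 344, 451 and 306 CPM in BC187, against 38.2, 54.6 and 42.6 CPM in NCYC3290 (log2 fold change 3.02 ± 0.10, SE, adjusted p = 7.3e-20). Its paralogs IMD3 and IMD4 differed by 0.32 and 0.43. ADE17, which catalyses the last steps to IMP, had 1017, 1404 and 745 CPM in BC187, against 597, 750 and 326 CPM in NCYC3290, so the groups overlapped while each pair differed in the same direction. Its log2 fold change was 0.94 ± 0.10 (SE, adjusted p = 4.2e-08). Without the replicate term 2 of the 19 were called, and leaving out single libraries or replicate numbers gave 11 to 15.

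In the list of histidine, aromatic and other amino acid genes, 18 of 37 were higher in BC187 and 2 lower. The shares over all genes were 13.5% and 15.8%. HIS5, histidinol-phosphate aminotransferase, had 178, 189 and 158 CPM in BC187, against 94.8, 103 and 90.3 CPM in NCYC3290 (log2 fold change 0.86 ± 0.10, SE). HIS2 and ASN1 were the 2 lower members, with -0.63 and -0.51. With no replicate term, 4 were higher and 2 lower, and leaving out replicate 1, BC187 replicate 1 or BC187 replicate 3 lowered the higher members to 11. Of 18 arginine genes, 5 were lower in BC187 and 2 higher, beside 15.8% and 13.5% of all genes, and the median of -0.04 was close to the -0.02 of all genes. With no replicate term 3 were lower and none higher, and without replicate 1 it was 3 lower and 1 higher. ARG1, argininosuccinate synthetase, had 19.1, 19.8 and 15.9 CPM in BC187, against 63.1, 62.4 and 66.5 CPM in NCYC3290 (log2 fold change -1.82 ± 0.14, SE). CAR1 and CAR2, the arginase and transaminase of arginine breakdown, were lower in BC187 by -1.09 and -1.18 on the log2 scale. Of 30 nitrogen catabolite genes, 11 were lower in BC187 and 4 higher, against 15.8% and 13.5% of all genes. The count of lower members was 6 with no replicate term, 5 without replicate 1, 6 without replicate 3, 7 without BC187 replicate 2, 6 without NCYC3290 replicate 1 and 7 without NCYC3290 replicate 3. The allantoin gene DAL1 was lower, at 0.89 ± 0.45 CPM in BC187, against 7.22 ± 1.24 CPM in NCYC3290 (SD).

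The letters TGACTC, or GAGTCA on the opposite strand, are the core bound by Gcn4 and Bas1, regulators of amino acid and purine synthesis. They were found in the promoter window of 10 of 19 purine genes (52.6%), 4 of 10 lysine genes (40.0%) and 19 of 37 histidine, aromatic and other amino acid genes (51.4%). In lists that were not mostly higher in BC187 they were found in 8 of 18 arginine genes (44.4%) and 8 of 15 leucine, isoleucine and valine genes (53.3%), of which 3 were higher and 2 lower. Over all promoters of the same length 479 of 5987 (8%) hold them. A match is a description and no binding was measured. The windows of 4 called genes are shown, with matches in capitals, from the RefSeq S288c sequence of R64 (ADE17 at chrXIII:509231-509530, minus strand, ADE1 at chrI:169125-169424, plus strand, LYS12 at chrIX:187583-187882, minus strand, HIS5 at chrIX:142678-142977, plus strand). ADE1 holds 2 matches, on opposite strands.
ADE17: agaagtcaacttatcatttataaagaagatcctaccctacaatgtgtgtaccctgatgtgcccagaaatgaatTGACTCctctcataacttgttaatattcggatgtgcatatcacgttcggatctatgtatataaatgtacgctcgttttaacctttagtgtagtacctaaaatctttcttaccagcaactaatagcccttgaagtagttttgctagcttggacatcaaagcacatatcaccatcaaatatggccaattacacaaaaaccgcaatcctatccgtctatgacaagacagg
ADE1: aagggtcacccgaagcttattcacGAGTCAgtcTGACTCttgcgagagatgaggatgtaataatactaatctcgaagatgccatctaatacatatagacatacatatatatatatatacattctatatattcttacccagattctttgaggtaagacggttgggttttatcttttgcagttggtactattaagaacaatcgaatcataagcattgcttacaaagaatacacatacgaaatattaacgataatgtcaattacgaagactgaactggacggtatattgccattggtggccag
LYS12: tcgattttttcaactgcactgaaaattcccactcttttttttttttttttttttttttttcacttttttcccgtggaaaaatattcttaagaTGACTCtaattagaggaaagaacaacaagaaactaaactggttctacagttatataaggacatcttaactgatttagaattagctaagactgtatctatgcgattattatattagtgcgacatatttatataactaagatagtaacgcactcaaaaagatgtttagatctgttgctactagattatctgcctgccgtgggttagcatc
HIS5: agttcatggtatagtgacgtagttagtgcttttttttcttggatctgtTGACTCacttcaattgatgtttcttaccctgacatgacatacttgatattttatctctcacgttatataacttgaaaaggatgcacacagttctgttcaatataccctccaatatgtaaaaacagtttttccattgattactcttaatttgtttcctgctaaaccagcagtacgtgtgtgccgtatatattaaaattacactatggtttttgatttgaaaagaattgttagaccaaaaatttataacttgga

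**Figure D3:**
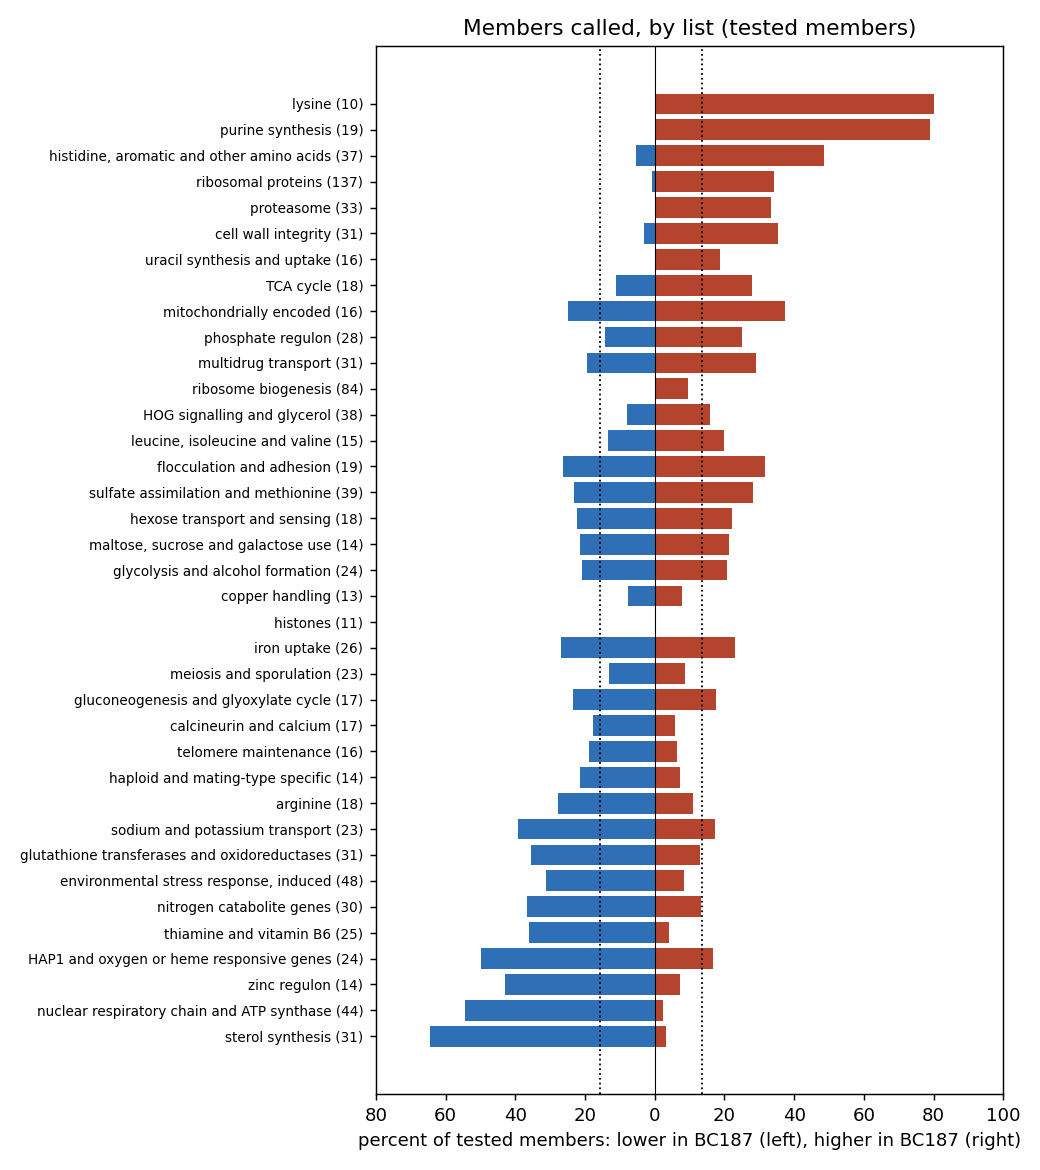
Percent of the tested members of each list that were called higher in BC187 (red, right) or lower in BC187 (blue, left), for lists with at least 10 tested members (number in parentheses), and dotted lines at the share over all genes, 13.5% and 15.8%. Lysine and purine synthesis lie at the top and sterol synthesis at the bottom.

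Genes for ergosterol, the membrane sterol of yeast, were lower in BC187 in 20 of 31 tested cases, against 15.8% of all genes. Their median log2 fold change was -0.37. The gene ECM22, a sterol regulator, was the only member higher, at 0.34. ERG5, C-22 sterol desaturase, had 461, 607 and 439 CPM in BC187, against 1082, 1366 and 957 CPM in NCYC3290 (log2 fold change -1.17 ± 0.09, SE, adjusted p = 9.9e-12). ERG3, C-5 sterol desaturase, had 740, 937 and 751 CPM in BC187, against 1472, 1886 and 1372 CPM in NCYC3290 (-0.96 ± 0.09, SE). CYB5 and NCP1, which pass electrons to sterol enzymes, were lower in BC187 by -0.86 and -0.82 on the log2 scale. ERG11, the azole target, had a log2 fold change of -0.20 (adjusted p = 0.064) and was not called. Without the replicate term 12 of the 31 were lower and none higher, and leaving out single libraries or replicate numbers gave 15 to 19 lower. OLE1, the fatty acid desaturase, was lower in BC187, with 1359, 1912 and 1346 CPM, against 3133, 5361 and 3065 CPM in NCYC3290 (-1.29 ± 0.10, SE).

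Nuclear genes of the respiratory chain and ATP synthase were lower in BC187 in 24 of 44 cases and higher in 1, SDH1. Over all genes 15.8% were lower and 13.5% higher. The median of the list was -0.34. CYC1, cytochrome c, had 98.8, 113 and 136 CPM in BC187, against 290.4, 257 and 327 CPM in NCYC3290 (log2 fold change -1.33 ± 0.10, SE, adjusted p = 4.2e-12). CYT1, cytochrome c1, had 95.7, 121 and 128 CPM in BC187, against 242, 353 and 306 CPM in NCYC3290 (-1.38 ± 0.10, SE). COX5A, a subunit of cytochrome c oxidase, had 99.9, 107 and 111 CPM in BC187, against 234, 225 and 273 CPM in NCYC3290 (-1.21 ± 0.10, SE). COX5B, its oxygen-limited counterpart, had a value of 0.03 and was not called. A fit with no replicate term called 12 of the 44 lower, and leaving out single libraries or replicate numbers gave 17 (without NCYC3290 replicate 3) to 24. Of 24 genes that respond to Hap1, oxygen or heme, 12 were lower in BC187 and 4 higher, beside 15.8% and 13.5% of all genes. ANB1, the translation factor gene made in low oxygen, was higher, with 29.8, 36.5 and 19.7 CPM in BC187, against 2.90, 4.02 and 2.10 CPM in NCYC3290 (3.25 ± 0.21, SE). CYC7, the cytochrome c isoform made in low oxygen, was lower, with 2.02, 0.24 and 2.21 CPM in BC187, against 6.95, 4.02 and 9.65 CPM in NCYC3290 (-2.15 ± 0.40, SE). HAP1, the heme-responsive activator of CYC1 and CYT1, was lower in BC187 by -0.38 on the log2 scale (adjusted p = 0.0023).

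The letters CCAAT, or ATTGG on the opposite strand, are the core of the Hap2-Hap3-Hap4-Hap5 complex, which activates respiratory genes. They were found in 36 of 44 respiratory promoter windows (81.8%), against 2592 of 5987 over all promoters (43.3%). The list of Hap1, oxygen or heme genes held them in 10 of 27 windows (37%). The TCA cycle list, with 5 members higher in BC187 and 2 lower, held them in 10 of 18 (55.6%). No binding was measured. The COX5A window is shown because it holds 2 matches, in capitals, and the gene was lower in BC187 (RefSeq S288c sequence of R64, chrXIV:531475-531774, plus strand).
COX5A: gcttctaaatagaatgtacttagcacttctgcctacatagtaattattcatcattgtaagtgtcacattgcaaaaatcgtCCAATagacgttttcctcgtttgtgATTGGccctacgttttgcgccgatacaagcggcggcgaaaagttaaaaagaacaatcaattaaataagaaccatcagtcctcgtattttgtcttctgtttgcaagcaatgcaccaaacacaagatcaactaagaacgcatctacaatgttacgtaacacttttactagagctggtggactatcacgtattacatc

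**Figure D4:**
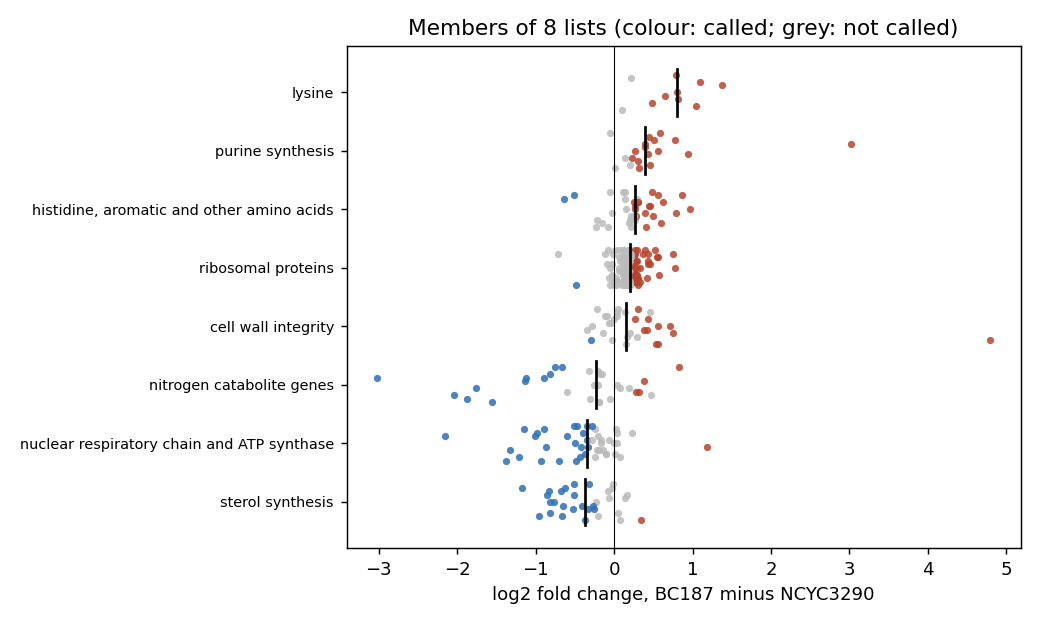
Log2 fold change, BC187 minus NCYC3290, of each tested member of 8 lists (coloured where called, grey where not, red higher and blue lower in BC187), with a black tick at the list's median. The medians run from 0.80 for lysine to -0.37 for sterol synthesis.

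Ribosomal protein genes showed a small shift, with 47 of 137 higher in BC187 and 1 lower, beside 13.5% and 15.8% of all genes. Their median was 0.20. RPS17B had 1200.4, 1341 and 1129 CPM in BC187, against 784, 765 and 610 CPM in NCYC3290 (log2 fold change 0.77 ± 0.09, SE). Proteasome genes were higher in BC187 in 11 of 33 cases and lower in none, beside the same shares of all genes. Of 84 ribosome biogenesis genes 8 were higher (9.52%), a smaller share than the 13.5% of all genes. These counts depend on the fit, since without the replicate term 3 ribosomal protein genes were higher and no proteasome gene was, and scaling by library totals gave 41 and 4. Leaving out single libraries or replicate numbers gave 13 (without BC187 replicate 3) to 69 (without replicate 2) ribosomal protein genes, 3 (without replicate 2) to 9 proteasome genes and 2 (without NCYC3290 replicate 3) to 20 (without replicate 2) ribosome biogenesis genes. None of 11 histone genes was called. Of 48 tested genes induced in the environmental stress response, 15 were lower in BC187 and 4 higher. Over all genes 15.8% were lower and 13.5% higher. The median of the stress list was -0.41. With no replicate term 8 were lower and 2 higher. HXK1, a hexokinase repressed by glucose, had 2.58, 5.25 and 1.11 CPM in BC187, against 22.4, 43.2 and 27.4 CPM in NCYC3290 (-3.44 ± 0.41, SE).

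Transport genes differed in both directions. The sodium pump genes ENA1 and ENA5 had 13.1 ± 2.5 and 28.0 ± 1.1 CPM in BC187, against 2.90 ± 0.57 and 4.22 ± 2.01 CPM in NCYC3290 (SD, n = 3 each). Only 14.8% of the ENA1 windows and 12.2% of the ENA5 windows occur once in the reference, so the copies cannot be told apart well. ENA2 had 0 to 2 counts in the 6 unstressed libraries of the 2 strains. The sum of ENA1, ENA2 and ENA5 was 41.1 ± 2.7 CPM in BC187, against 7.24 ± 1.70 CPM in NCYC3290 (SD, log2 fold change 2.49 ± 0.18, SE, adjusted p = 2.2e-11). NHA1, the sodium and proton antiporter, had 106 ± 8 CPM in BC187, against 102 ± 12 CPM in NCYC3290 (SD), a log2 fold change of 0.06 ± 0.10 (SE), and was not called. PHO89, the sodium and phosphate cotransporter, had 2.02, 3.82 and 3.32 CPM in BC187, against 99.2, 284 and 121 CPM in NCYC3290 (-5.68 ± 0.23, SE, adjusted p = 9.1e-12). The aquaporin gene AQY2 had 7.18, 8.59 and 3.87 CPM in BC187, against 54.8, 48.7 and 47.0 CPM in NCYC3290 (-2.99 ± 0.23, SE). SSU1, the sulfite exporter, had 29.1, 43.7 and 20.3 CPM in BC187, against 7.53, 8.27 and 7.37 CPM in NCYC3290 (1.95 ± 0.19, SE). ARR1, ARR2 and ARR3, a regulator, an arsenate reductase and an arsenite exporter, were also higher in BC187, by 0.88, 1.93 and 1.39 on the log2 scale.

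Of 25 thiamine and vitamin B6 genes, 9 were lower in BC187 and 1 higher, beside 15.8% and 13.5% of all genes, and with no replicate term 6 and 1. Of 8 biotin genes 3 were higher and 1 lower, the biotin importer gene VHT1 at -0.75. BIO2, biotin synthase, had 130.3, 97.6 and 106 CPM in BC187, against 54.2, 41.8 and 55.3 CPM in NCYC3290 (log2 fold change 1.14 ± 0.10, SE, adjusted p = 4.5e-10), and with no replicate term, without replicate 1 or without BC187 replicate 1, 1 of the 8 was higher and 1 lower. SNZ3, of vitamin B6 synthesis, had 0, 0.24 and 0.37 CPM in BC187, against 95.2, 99.7 and 100.5 CPM in NCYC3290. With its copy SNZ2 added the difference was -7.92 ± 0.25 on the log2 scale (SE, adjusted p = 1.2e-20). THI7, the thiamine transporter, had 108, 149 and 134 CPM in BC187, against 425, 581 and 431 CPM in NCYC3290 (-1.87 ± 0.10, SE). In sugar use, HXT1, the low-affinity glucose transporter, had 323, 375 and 334 CPM in BC187, against 116, 172 and 75.2 CPM in NCYC3290 (1.59 ± 0.26, SE, adjusted p = 0.0033). ADH2, the ethanol-oxidizing alcohol dehydrogenase, had 1102, 1346 and 1199 CPM in BC187, against 364, 514 and 293 CPM in NCYC3290 (1.69 ± 0.17, SE), while BY4743 averaged 5.58 CPM and YPS128 641 CPM.

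Some abundant genes have paralogs of similar sequence. For EFT1, TEF2 and TIF1, 16.5%, 13.5% and 25.9% of the 100-base windows occur once, and for TDH2 87.2%. TDH2, a glyceraldehyde-3-phosphate dehydrogenase, was 2.21-fold higher in BC187, at 6554 ± 749 CPM, against 2973 ± 387 CPM in NCYC3290 (SD), but summed with TDH3 the difference was -0.14 (adjusted p = 0.34). EFT1, TEF2 and TIF1 were lower alone, and summed with their copies the differences were 0.11, 0.29 and -0.04, of which only the TEF sum was called (adjusted p = 0.0094). These values are from sums chosen after the data were seen, and the values of EFT1, TEF2 and TIF1 alone are uncertain.

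The other 2 strains were used to see which strain stood apart. Of the 157 genes at least 2-fold higher in BC187, both BY4743 and YPS128 were nearer to NCYC3290 for 49 and nearer to BC187 for 41, and they split for 67. Of the 179 lower genes, both were nearer to NCYC3290 for 57 and nearer to BC187 for 52, and they split for 70. The shares describe levels of 4 strains, and no test was made.

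Libraries of the same strains under 0.7 M NaCl, which did not choose these genes, were then compared. By the Methods, cultures were sampled before and after the shift to salt, so these libraries are not an independent check. The fit had a replicate term but no term for each culture. At 30 min, 1461 of 5826 genes differed between BC187 and NCYC3290 (25.1%), and at 3 h 1591 did (27.3%). Leaving out replicate 3 lowered these counts to 665 and 858. Of 155 genes that were at least 2-fold higher unstressed and could be fitted, 149 had the same sign at 30 min and 134 were also called, and at 3 h 132 had the same sign and 100 were called. Of 174 genes at least 2-fold lower unstressed, 160 had the same sign at 30 min with 133 called, and 154 at 3 h with 110 called. The median log2 fold change of the higher genes was 1.69 unstressed, 1.39 at 30 min and 1.03 at 3 h. For the lower genes it was -1.56, -1.27 and -0.84. The genes were chosen by their unstressed values, so part of the smaller medians in salt is built in by that choice.

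A joint test found 946 genes (16.2%) whose strain difference changed with time in salt, falling to 495 without the replicate term and to 237 without replicate 3. The summed ENA genes differed by 2.49 unstressed, 1.41 at 30 min (adjusted p = 7.9e-06) and 0.26 at 3 h (adjusted p = 0.28). SED1 differed by 5.18 unstressed, 5.51 at 30 min and 1.37 at 3 h. Its mean at 3 h was 7527 CPM in BC187, against 2899 CPM in NCYC3290. The stress list was mostly lower in BC187 before salt among its called members. At 30 min 29 of its 48 members were higher in BC187 and 2 lower, and at 3 h 17 were higher and 2 lower. Over all 5826 genes, 683 were higher and 778 lower at 30 min, and 996 were higher and 595 lower at 3 h. HSP12, a membrane-stabilising stress protein, averaged 461 CPM in BC187 at 30 min, against 58.5 CPM in NCYC3290, and unstressed its difference was not called. HXK1, low in BC187 unstressed, differed by 0.17 at 30 min (adjusted p = 0.76). Ribosomal protein genes were higher in BC187 for 129 of 137 members at 3 h, beside 996 of all 5826 genes. The 3 h directions depend on the scaling, since library totals in place of TMM gave 395 higher and 2319 lower genes at 3 h, against 996 and 595.

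**Figure D5:**
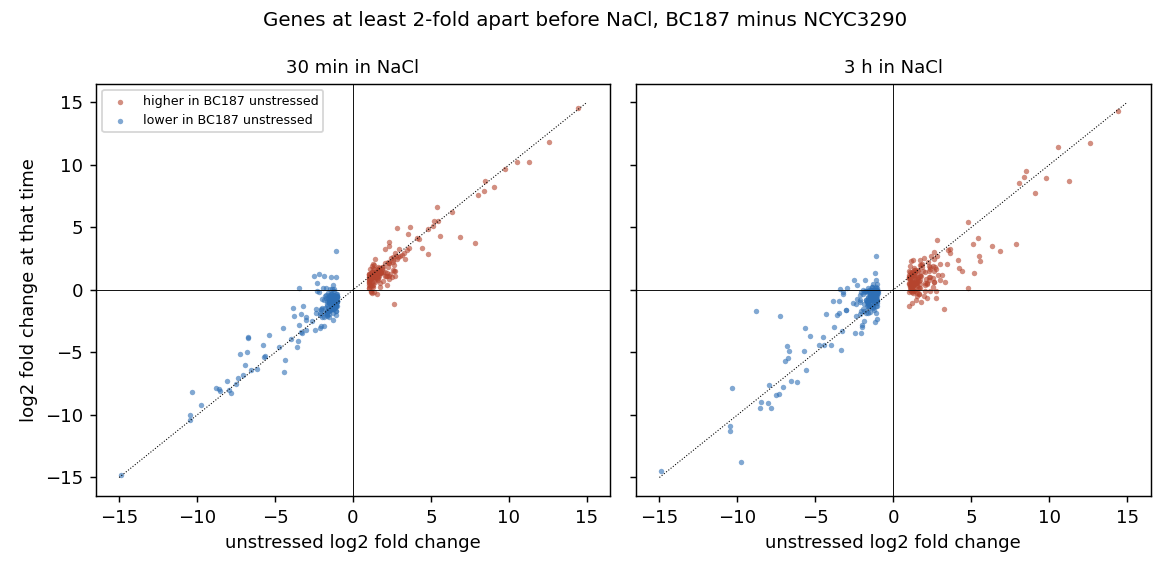
Unstressed log2 fold change, BC187 minus NCYC3290, on the horizontal axis against that at 30 min (left) and at 3 h (right) in NaCl, for genes at least 2-fold apart unstressed (red higher and blue lower in BC187), with a dotted line of equal values. Most genes keep their side of 0, 149 of 155 and 160 of 174 at 30 min.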

How the data were processed

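RNA-seq libraries of unstressed BC187 and NCYC3290 were analysed from the deposited table of raw counts per gene. Before deposition, the authors removed rRNA, read 100 bases from 1 end of each fragment, trimmed with Trimmomatic, aligned with bwa-mem to S288c and tallied the counts with HT-Seq. The HT-Seq settings for strand and multiply mapped reads are not given in the sources used here, so overlapping genes and near copies are uncertain. Of 6717 IDs, 6025 matched the RefSeq R64 annotation, and 0.117% of counts lay on unmatched IDs.

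Genes were filtered by filterByExpr, scaled by TMM and fitted by edgeR 4.0.16 (R 4.3.3, limma 3.58.1) with robust quasi-likelihood tests on 12 unstressed libraries of 4 strains, with group and replicate terms. The SE of a log2 fold change is its absolute value divided by the square root of the F statistic of that test. It thus comes from the fit of 12 libraries and is not a standard error over the 6 libraries alone. Salt values came from the 18 libraries of both strains. P-values were adjusted by Benjamini-Hochberg over all tested genes, with a threshold of 0.05. Pairing rests on the Methods, by which the strains of a replicate number grew side by side, and same-numbered libraries deviated together (r = 0.28 to 0.64 in 18 pairs). P-values measure the spread left after the group and replicate terms, with 3 cultures per strain. Variation shared by a replicate number is taken out, and the unstressed fit pools the spread of 4 strains. Replicates differed beyond counting noise (chi-square per degree of freedom 5.68 to 23.5).

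Named genes were the 15 largest in each direction with at least 50 counts in every library of the higher strain and the same sign in 3 pairs, the 10 most abundant with at least a 2-fold difference, up to 4 per list, all of lists of 8 or fewer, and ENA1, ENA2, ENA5 and NHA1. Other genes named were chosen after their values were seen. The members and lists were chosen with earlier results of these data known. Windows of 100 bases that occur once measured how well a gene could be told from its copies. On simulated data, 199 of 200 genes changed by 1.5 on the log2 scale were recovered, with 6 false calls among 5578 genes. Called genes that were also fitted in salt had smaller unstressed medians, 0.50 for higher and -0.55 for lower genes. The simulation also changed fewer genes than were called. It therefore does not measure recovery or false calls for differences of that size. DESeq2 1.42.0, other scalings, filters, left-out libraries and the fit without the replicate term were alternatives.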

Additional observations from a re-analysis of the deposited data

Results flagged for a closer look

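These genes are listed because the difference between BC187 and NCYC3290 itself changed with time in salt, by the joint test of the 2 interaction terms (edgeR, adjusted p below 0.05). Values are the log2 difference, BC187 minus NCYC3290, at 3 h minus that of unstressed cells. Genes named for their large unstressed differences were chosen by those values, which favours a smaller difference at 3 h. Among genes higher in BC187 before salt the difference changed for YGR201C by -2.61, YHB1 by -2.94, FIT2 by -3.22, SED1 by -3.84, PRM5 by -4.70, TIP1 by -2.98, FIT3 by -2.39, HBN1 by -1.78 and CWP1 by -2.70. Among genes lower in BC187 before salt it changed for SNZ3 by 7.07, PHO89 by 2.63, ATG36 by 2.98, IRC7 by 1.56 and YAR068W by 1.67. Among abundant genes with paralogs of similar sequence it changed for TDH2 by 1.15, EFT1 by 0.69, TEF2 by 0.61 and TIF1 by 0.85.

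Called differences of 8 named genes had opposite signs unstressed and at 30 min or 3 h, and for these the change at 3 h was 1.25 for GPP2, 1.05 for BAT2, 1.83 for LEU2, 2.59 for ARG1, 2.48 for CAR2, 1.88 for CAR1, -4.78 for ANB1 and 1.36 for CYC7. ARG1, argininosuccinate synthetase, was -1.82 unstressed and 0.81 at 3 h. ANB1 was 3.25 unstressed and -1.50 at 3 h. CYC7, the cytochrome c isoform made in low oxygen, was -2.15 unstressed and 1.31 at 30 min. The 3 h values move with the scaling of the libraries.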

How the results depend on the processing

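Without the replicate block that pairs same-numbered libraries, 549 genes were called unstressed, against 1652 with it, and 548 of them were among the 1652. The block also set the count of genes whose strain difference changed in salt, 495 without it. Leaving out libraries gave 1008 (without replicate 1) to 1432 unstressed genes, 665 (without replicate 3) to 1466 at 30 min, 858 (without replicate 3) to 1378 at 3 h and 237 (without replicate 3) to 692 for the change in salt. Library totals in place of TMM gave 2714 genes at 3 h. A fit of all 35 libraries gave 558 genes for the change in salt, and a mean of at least 50 counts left 179 genes at 2-fold, where fewer genes were tested. DESeq2's Wald test called 1402 unstressed genes. All 336 genes at 2-fold kept their direction under the 4 fits with other scalings, with DESeq2 or without the block.

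Of 2693 fold changes of 170 named genes under the alternatives, 2455 kept their direction and call, 234 (61 genes) lost the call, and 4 changed sign, all under sums of near copies chosen after seeing the data: EFT1 with EFT2 at 0.11, PHO11 with PHO12 at 0.48, TDH2 with TDH3 at -0.14 and TEF2 with TEF1 at 0.29. Low counts limit genes near 3 counts, where fitted folds depend on the prior count. The causes of the other changes were not tested.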

Other observations

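Other genes of the 2 strains differed unstressed outside the groups above. RSB1, a sphingoid base exporter of the plasma membrane, averaged 5.18 ± 1.01 CPM in BC187, against 44.2 ± 7.4 CPM in NCYC3290 (SD, n = 3 each, log2 fold change -3.04). SGE1, a drug exporter, averaged 64.3 ± 6.8 CPM in BC187, against 28.3 ± 0.8 CPM in NCYC3290 (SD). OYE2, an NADPH oxidoreductase, averaged 140.2 ± 16.3 CPM in BC187, against 453 ± 69 CPM in NCYC3290 (SD). IRC7, a cysteine beta-lyase that releases thiols, averaged 14.4 ± 3.0 CPM in BC187, against 178 ± 32 CPM in NCYC3290 (SD). MUP1, the high-affinity methionine permease, averaged 556 ± 28 CPM in BC187, against 188 ± 23 CPM in NCYC3290 (SD). CIT2, the peroxisomal citrate synthase, averaged 84.4 ± 21.1 CPM in BC187, against 23.2 ± 4.4 CPM in NCYC3290 (SD). ATG36, a receptor for the degradation of peroxisomes, averaged 2.88 ± 0.42 CPM in BC187, against 42.1 ± 3.0 CPM in NCYC3290 (SD).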
